A study of Mus musculus with 8 samples.

Results

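The respiratory chain genes described here were chosen by symbol: the genes of the mitochondrial genome that encode subunits of complexes I, III, IV and V, and the nuclear genes whose names begin with Nduf and a subunit letter, Sdh, Uqcr, Cox4 to Cox8 or Atp5. The rule found 100 of the 21812 symbols in the count table. They are 13 mitochondrially encoded genes, 86 nuclear genes and 1 pseudogene symbol, Cox5b-ps, which was left out of all counts. The nuclear genes comprise 39 of complex I, 4 of complex II, 8 of complex III, 18 of complex IV and 17 of complex V, and the mitochondrially encoded ones 7, 0, 1, 3 and 2. Assignment followed the symbol, so Ndufa4 and Ndufa4l2 were counted with complex I although the Ndufa4 protein is found in complex IV.

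The cells were mouse embryonic stem cells held in PrE-induce medium, which drives them toward primitive endoderm (PrE), an extraembryonic layer of the blastocyst, and their RNA was counted in 8 libraries. There were 2 libraries for each of 4 groups: Mettl3 WT and Virma WT, both of genotype WT, Mettl3 cKO, of genotype Mettl3_cKO, and Virma cKO, of genotype Virma_cKO. All groups share the medium, and the libraries are total RNA. N6-methyladenosine (m6A) is placed on RNA by a writer complex in which METTL3 is the catalytic subunit and VIRMA a scaffold. The driver, timing and exons of the conditional deletions, the number of clones and whether replicates were separate cultures are not stated in the labels, so p-values measure only the spread between these libraries, which may be technical.

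Total counts were 15568628 to 17306227 per library. Mettl3 stood at 35.7 and 35.2 CPM (counts scaled to library size with TMM factors) in Mettl3 WT and at 35.3 and 33.9 in the libraries labelled Mettl3 cKO, so its total did not pass the test there (log2 fold change −0.04 ± 0.07, standard error). Virma stood at 93.3 and 88.7 CPM in Virma WT and at 70.8 and 73.8 in the libraries labelled Virma cKO (−0.33 ± 0.06). Gene totals need not report the loss of single exons, and below cKO means the libraries so labelled. Of 18 primitive endoderm markers tested, 15 fell in Mettl3 cKO (83.3%) and 18 in Virma cKO (100%), beside 28.0% and 26.1% of all genes tested. Their summed level was 16080 and 16112 CPM for Mettl3 WT, 10243 and 10319 for Mettl3 cKO, 12723 and 12799.5 for Virma WT, and 2402 and 2428 for Virma cKO. Of 17 fibroblast markers tested of 18 listed, 15 rose in Mettl3 cKO (88.2%) and 17 in Virma cKO (100%), beside 27.1% and 26.2% of all genes. Their sums were 207 to 223, 399 and 399, 527 to 529, and 1214 to 1219 CPM in the same order of groups. S100a4 had no count in 7 of the libraries. The 15 pluripotent markers were detected in every library, and their sums ran from 1766 CPM in Virma cKO to 2776 in Virma WT. In bulk RNA, fewer cells of a type and less RNA per cell cannot be told apart, and what these shifts contribute to the values below was not tested. Over all genes the chi-square per degree of freedom between the libraries of the Virma cKO pair was 0.914, less than sampling noise gives, so they were counted as 1 sample. Over the 13 mitochondrially encoded genes the same pair differed by far more than sampling noise (56.1), so counts of calls with 8 separate libraries stand beside the main ones.

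Oxidative phosphorylation passes electrons from NADH through complex I and from succinate through complex II to ubiquinone, then through complex III and cytochrome c to complex IV, where oxygen is reduced. Complexes I, III and IV pump protons across the inner mitochondrial membrane, and complex V, the ATP synthase, uses the gradient. Subunits of complexes I, III, IV and V come from both genomes, whereas complex II is encoded in the nucleus. The mitochondrial genome is transcribed into long RNAs from both strands that are cut into single mRNAs, most of them from the heavy strand and mt-Nd6 from the light strand. Naive embryonic stem cells use both respiration and glycolysis, and their energy metabolism is remodelled as they change state.

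A stretch of the mitochondrial genome stands apart in these counts, and its sequence is shown because the same letters occur in the nuclear genome. In the GRCm38 reference with GENCODE M21, another build than that of the authors, chr1:24611535-24616197 carries 7 annotated copies, on the minus strand, of consecutive mitochondrial genes. The copied span corresponds to chrM:6381-11042. It holds the end of mt-Co1, the whole of mt-Co2, mt-Atp8, mt-Atp6, mt-Co3, mt-Nd3 and mt-Nd4l, and the beginning of mt-Nd4. Across 4149 aligned bases of the annotated copies 7 differ, 6 of them at the edge inside mt-Co1 and 1 in mt-Nd3 (T3C, counted from the first base of the gene, mitochondrial base first). mt-Atp8 has no annotated copy but lies within the span. Capitals mark the bases that differ between each mitochondrial gene and its copy, in 60-base stretches read 5′ to 3′ on the sense strand. The mt-Co1 stretch is bases 1054 to 1113 of the gene, chrM:6381-6440, and its copy Gm29216 is at chr1:24616138-24616197. The other stretches start at the first base of the gene, mt-Co2 at chrM:7013-7072 with Gm28661 at chr1:24615506-24615565, and mt-Nd3 at chrM:9459-9518 with Gm28438 at chr1:24613060-24613119.
mt-Co1: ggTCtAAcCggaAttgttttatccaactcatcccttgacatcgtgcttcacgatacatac
Gm29216: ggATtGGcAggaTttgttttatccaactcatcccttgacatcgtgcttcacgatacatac
mt-Co2: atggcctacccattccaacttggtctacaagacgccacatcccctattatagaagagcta
Gm28661: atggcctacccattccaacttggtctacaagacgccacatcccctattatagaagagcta
mt-Nd3: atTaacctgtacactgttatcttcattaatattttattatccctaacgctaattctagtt
Gm28438: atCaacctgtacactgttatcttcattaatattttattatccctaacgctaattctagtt

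The 6 genes wholly inside the span had 0 to 658 counts per library, while mt-Nd1, mt-Nd2, mt-Co1, mt-Nd4, mt-Nd5 and mt-Cytb had 13760 to 117220. Per kilobase of gene length, the mean over the 8 libraries was 4222 CPM for mt-Cytb, 3477 for mt-Nd1 and 3423 for mt-Co1. It was 4.28 for mt-Nd4l and 4.62 for mt-Co3, which encodes a core subunit of cytochrome c oxidase. mt-Nd6, alone on the light strand, had 502 to 986 counts, and since no source used here gives the strand setting of the counting, its reads cannot be told apart from heavy-strand RNA over the same bases. How reads with several genomic positions were counted is also not given, so the levels of the 6 genes are uncertain and each result over the mitochondrially encoded genes is given with and without them. mt-Co1 and mt-Nd4 lie partly inside the span, and 51.1% and 62.2% of their 50-base windows occur in other annotated genes, so their counts are uncertain as well. The 5 genes with no overlap with the span are mt-Nd1, mt-Nd2, mt-Nd5, mt-Nd6 and mt-Cytb. Of these, mt-Nd2 and mt-Nd5 still have 8.19% and 7.61% of their 50-base windows in other annotated genes. The counts of the nuclear copies were not analysed here.

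**Figure D1:**
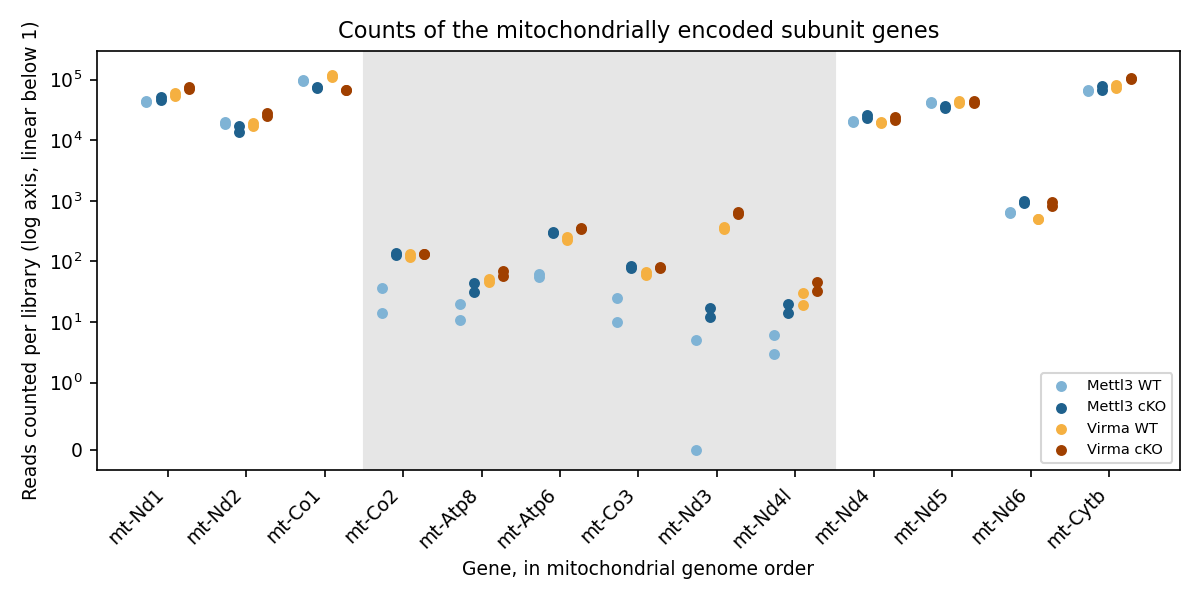
Reads counted per library (vertical axis, logarithmic above 1 and linear below) for the 13 mitochondrially encoded genes in genome order, with 2 points per group and the genes wholly inside the copied span shaded. The shaded genes lie at 0 to 658 counts and mt-Nd6 at 502 to 986, while the 6 other genes lie at 13760 or above.

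The copied-span genes also differed between the WT groups. mt-Nd3, a small membrane subunit of complex I, had 5 and 0 counts for Mettl3 WT, 17 and 12 for Mettl3 cKO, 366 and 341 for Virma WT, and 658 and 607 for Virma cKO. All 4 Virma libraries were above all 4 Mettl3 libraries. Virma WT exceeded Mettl3 WT by a log2 fold change of 7.07 ± 0.29, a value that rests on 5 counts in Mettl3 WT. Without the library that holds them the other Mettl3 WT library is at 0, and against a floor of 3 counts in that library Virma WT was at least 117-fold higher. mt-Atp6, the proton channel subunit of ATP synthase, had 61 and 55 counts with Mettl3 WT, 294 and 311 with Mettl3 cKO, 222 and 250 with Virma WT, and 352 and 340 with Virma cKO. The Mettl3 WT libraries were the low ones for mt-Atp6, and the groups did not overlap. mt-Co2, which carries a copper centre of complex IV, had 36 and 14 counts in Mettl3 WT and 118 to 136 in all the other libraries. Summed over the 6 genes the level was 8.09 and 6.64 CPM for Mettl3 WT, 35.0 and 35.4 for Mettl3 cKO, 51.4 and 50.3 for Virma WT, and 79.2 and 77.3 for Virma cKO.

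In Mettl3 cKO against Mettl3 WT, 55.1% of the 14229 genes tested passed an adjusted p of 0.05 in edgeR's quasi-likelihood test, 27.1% higher and 28.0% lower. Of the 13 mitochondrially encoded genes 8 rose and 2 fell. All 6 genes inside the copied span rose, with log2 fold changes of 1.28 to 2.49. The highest, of mt-Nd3, rests on the same 5 counts in Mettl3 WT: it was 1.52 (edgeR adjusted p = 0.0245) without Mettl3 WT replicate 2, and without replicate 1 Mettl3 cKO was at least 4.87-fold higher than the floor of 3 counts. Single Mettl3 WT libraries also moved mt-Co2, from 2.40 to 3.24 without replicate 1, and mt-Co3, from 2.20 to a fold 1.74 times as large without replicate 2. mt-Atp8 no longer passed without Mettl3 cKO replicate 1 (1.01, edgeR adjusted p = 0.0709) and mt-Nd4l not without Mettl3 cKO replicate 2 (1.62, edgeR adjusted p = 0.0817). With Virma WT as control for Mettl3 cKO the sign turned for mt-Nd3 (−4.58), mt-Nd4l (−0.51) and mt-Atp8 (−0.37), and mt-Co2 (0.08) and mt-Co3 (0.36) did not pass. Of the 7 genes not wholly inside the span 2 rose and 2 fell, and the median was 0.14, against 0.58 for all 13 and 0.01 for all genes tested. Of the 5 with no overlap 1 rose and 1 fell, with a median of 0.14. mt-Co1, the catalytic core of cytochrome c oxidase, stood at 5892 and 5694 CPM in Mettl3 WT and 4506 and 4376 in Mettl3 cKO, a fall of −0.38 ± 0.03. mt-Nd5, a proton-pumping subunit of complex I, went from 2518 and 2509.5 CPM to 2225 and 2028 (−0.24 ± 0.03). mt-Nd4, its neighbour in the same membrane arm, went the other way, from 1224 and 1179 CPM to 1571 and 1423 (0.32 ± 0.03). mt-Nd6 went from 38.7 and 37.8 CPM to 54.5 and 59.6 (0.58 ± 0.07). These 4 genes passed the test with signs that differed within the genome and within complex I. The counts of mt-Co1 and mt-Nd4 are uncertain because of the copied span, and those of mt-Nd6 because the strand setting is unknown. A rise and a fall free of these limits is therefore not shown by these 4.

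mt-Nd1, mt-Nd2 and mt-Cytb did not pass in Mettl3 cKO, with log2 fold changes of 0.14 ± 0.08, −0.30 ± 0.15 and 0.14 ± 0.10. Replicate 1 lay above replicate 2 in all 4 groups for 8 of the 13 mitochondrially encoded genes (61.5%), these 3 among them, and for 6.94% of all genes tested. The main test did not take this into account, and with a replicate block all 3 passed, as given below. mt-Nd1 stood at 2685 and 2599.6 CPM in Mettl3 WT and at 3089.9 and 2751 in Mettl3 cKO, and the gap within the cKO pair was wider than that between the group means. Without Mettl3 cKO replicate 2, mt-Nd1 (0.23, edgeR adjusted p = 0.000498), mt-Nd2 (−0.15, 0.0331) and mt-Cytb (0.25, 0.000301) all passed. mt-Nd2 also passed without Mettl3 cKO replicate 1 (−0.47, edgeR adjusted p = 2.06e-06). mt-Nd1 passed without Virma WT replicate 1 (0.15, edgeR adjusted p = 0.0339) or replicate 2 (0.15, 0.0397).

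In Virma cKO against Virma WT 52.3% of genes passed, 26.2% higher and 26.1% lower. Of the 13 mitochondrially encoded genes 6 rose and 1 fell. With 8 separate libraries 7 rose and 1 fell, and 8914 of all genes passed, against 7439 in the main test. In the main test 4 of the 7 not wholly inside the copied span rose and 1 fell, with a median of 0.39. Of the 5 with no overlap 3 rose and none fell, with a median of 0.47. Inside the span mt-Atp6 (0.57 ± 0.13) and mt-Nd3 (0.86 ± 0.13) rose. mt-Co1, which lies partly inside, was the one that fell, from 6993 and 6634 CPM in Virma WT to 4141 and 4073 in Virma cKO (−0.73 ± 0.03). mt-Nd6 rose from 30.4 and 29.9 CPM to 58.8 and 50.6 (0.86 ± 0.08). mt-Nd4 rose from 1202 and 1138 CPM to 1448 and 1319 (0.24 ± 0.04). mt-Nd5 stood at 2633 and 2476 CPM in Virma WT, against 2667 and 2535 in Virma cKO (0.02 ± 0.04), and these groups overlapped.

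mt-Cytb, the haem-carrying subunit of complex III, stood at 4792 and 4272 CPM in Virma WT, against 6444 and 6168 in Virma cKO (0.47 ± 0.13, edgeR adjusted p = 0.048). mt-Nd1, next to the ubiquinone site of complex I, stood at 3527 and 3160.1 CPM in Virma WT, against 4576 and 4231 in Virma cKO (0.39 ± 0.10, edgeR adjusted p = 0.0245). The groups did not overlap for either gene, but both calls depended on single libraries. Without Mettl3 WT replicate 1 or 2, which enter through the shared dispersion, the edgeR adjusted p was 0.0992 and 0.0988 for mt-Nd1, and 0.105 and 0.104 for mt-Cytb. For mt-Cytb it was also 0.0756 without Virma WT replicate 1, 0.15 without Virma WT replicate 2 and 0.0548 without Virma cKO replicate 1. mt-Nd2 went from 1144 and 1012 CPM to 1713 and 1530.1 (0.59 ± 0.18, edgeR adjusted p = 0.0695) and did not pass. It passed with 8 separate libraries (0.59, edgeR adjusted p = 0.0204) and without Mettl3 cKO replicate 1 (0.58, 5.73e-08) or 2 (0.59, 5.55e-08). Between the replicates of a group the chi-square per degree of freedom was 18 to 144 for the mitochondrially encoded genes in the 4 groups. For the nuclear genes it was 0.776 to 3.82. This measure grows with the count at the same relative difference, and most mitochondrially encoded reads fall on very abundant genes. It therefore does not show that their relative differences were larger.

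**Figure D2:**
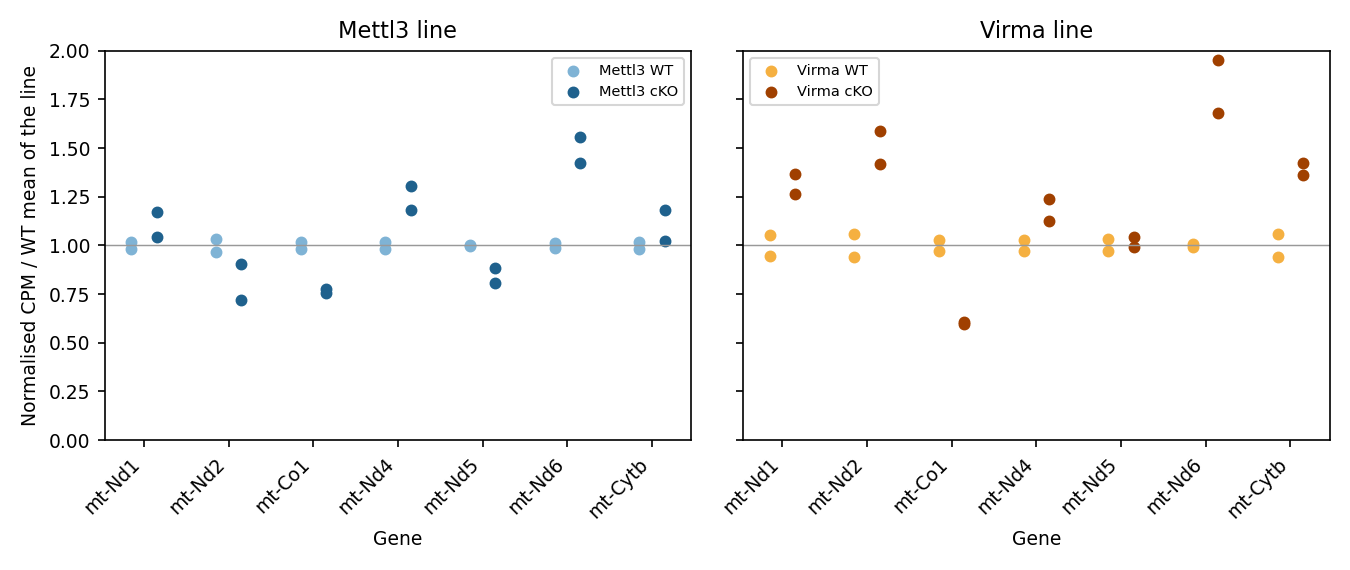
Normalised CPM of the 7 mitochondrially encoded genes not wholly inside the copied span, of which mt-Co1 and mt-Nd4 lie partly inside, divided by the mean of the 2 WT libraries of the same line (vertical axis), with 1 point per library. In both lines the cKO points lie below the WT points for mt-Co1 and above them for mt-Nd4 and mt-Nd6.

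The make-up of the mitochondrially encoded counts differed accordingly. mt-Co1 held 33.4 and 33.3% of them with Mettl3 WT, 26.0 and 28.0% with Mettl3 cKO, 34.3 and 35.3% with Virma WT, and 19.6 and 20.4% with Virma cKO. Both cKO groups lay below both WT groups, and Virma cKO below Mettl3 cKO. mt-Cytb held 23.2 ± 0.0473% (SD, n = 2) in Mettl3 WT, 27.0 ± 0.849% (SD, n = 2) in Mettl3 cKO and 23.1 ± 0.541% (SD, n = 2) in Virma WT. In Virma cKO it held a mean of 30.7%. These shares are given as values and were not tested.

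In Mettl3 cKO 25 of the 82 nuclear genes tested rose and 26 fell, with a median of 0.01, the same as over all genes. Both shares are close to those of all genes given above. The split depended on the processing. With a trend over gene length and GC content removed 9 rose and 54 fell, beside 2984 and 4407 of all 14229 genes. By DESeq2 20 rose and 15 fell, and 5683 of all genes passed, against 7835 in the edgeR test. With Virma WT as the control 48 rose and 11 fell, beside 58.5% of all genes, 29.3% higher and 29.2% lower. Without Mettl3 cKO replicate 2, 15 fell. Cox6a2, Cox7b2, Cox8b and Cox8c did not pass the filter on low counts and had at most 1.08 CPM in any library.

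In Virma cKO 59 of the 82 nuclear genes fell and 2 rose, against 26.1% and 26.2% of all genes. Their median was −0.33, against 0.02 for all genes. With 8 separate libraries 64 fell, and 8914 of all genes passed. By DESeq2 52 fell, and 5283 of all genes passed, against 7439 in the main test. Scaled by total count alone, 46 fell and 4 rose with a median of −0.20, beside a median over all genes of 0.15 and 65.4% of all calls higher. The summed level of the nuclear genes was 12578 and 12498 CPM with Mettl3 WT, 12695 and 12741 with Mettl3 cKO, 11769 and 11651 with Virma WT, and 8934 and 9013 with Virma cKO. The Virma cKO libraries lay below all others in this sum. Genes from the mitochondrial genome summed to 17665 and 17108 CPM, 17300 and 15633, 20373 and 18772, and 21126 and 19985 in the same order, and there the Virma WT and Virma cKO libraries overlapped. The count ratio of mitochondrially encoded to nuclear genes was therefore highest in Virma cKO, at 2.36 and 2.22, against 1.73 and 1.61 in Virma WT, 1.36 and 1.23 in Mettl3 cKO, and 1.40 and 1.37 in Mettl3 WT.

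**Figure D3:**
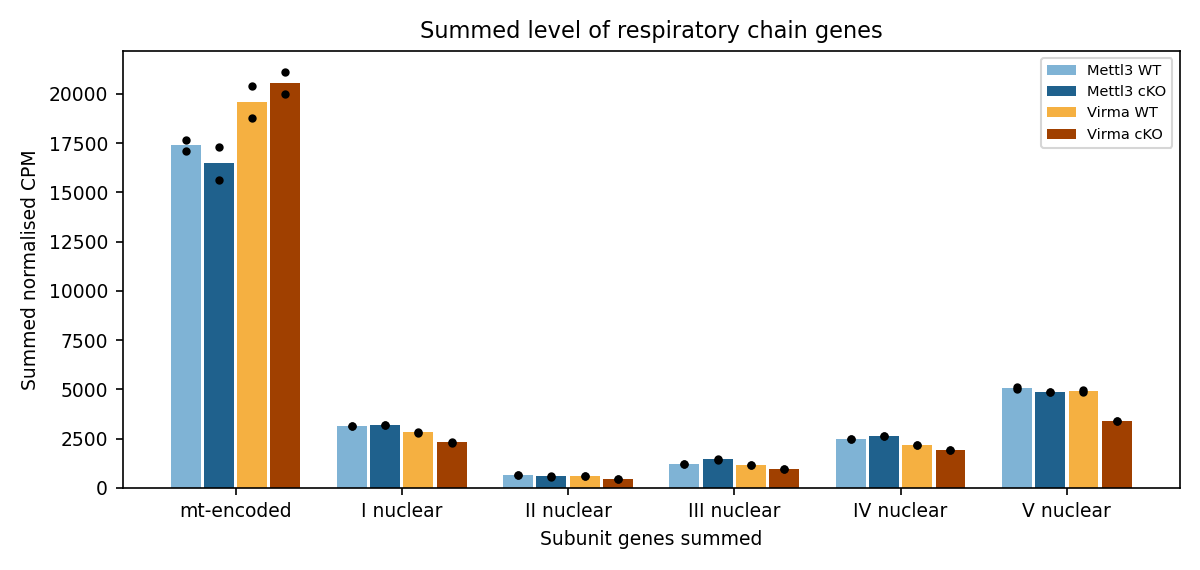
Summed normalised CPM (vertical axis) of the mitochondrially encoded genes and of the nuclear genes of each complex, with bars for the mean of 2 libraries and points for the libraries. The Virma cKO bar is the lowest of the 4 for the nuclear genes of every complex, and complex V falls from 4953 and 4887 in Virma WT to 3367 and 3399.

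Complex I is built from catalytic core subunits, conserved from bacteria, and accessory subunits around them. In Virma cKO 25 of its 39 nuclear genes fell (64.1%) and 1 rose (2.56%), beside 26.1% and 26.2% of all genes, with a median of −0.26. Ndufs7, an iron-sulfur subunit near the ubiquinone site, stood at 86.3 and 83.3 CPM (Mettl3 WT), 104 and 114 (Mettl3 cKO), 92.2 and 92.4 (Virma WT), and 71.1 and 72.5 (Virma cKO). It was thus highest in one cKO group and lowest in the other, with log2 fold changes of 0.36 ± 0.05 and −0.36 ± 0.06. The rise turned to −0.05 with the length and GC trend removed. Ndufv3, an accessory subunit of the NADH-oxidising tip, fell from 72.4 and 72.2 CPM to 42.7 and 40.3 in the Virma line (−0.80 ± 0.07) and from 80.8 and 83.1 to 61.7 and 64.2 in the Mettl3 line (−0.38 ± 0.05).

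In Mettl3 cKO 10 of the 39 nuclear genes of complex I rose (25.6%) and 14 fell (35.9%), beside 27.1% and 28.0% of all genes. Ndufc2 stood at 56.5 and 67.2 CPM in Mettl3 WT and at 82.4 and 84.9 in Mettl3 cKO (0.43 ± 0.06), and at 61.4 to 66.3 CPM in the 4 Virma libraries. Ndufb2 went the other way in the Mettl3 line, at 13.6 and 14.2 CPM for Mettl3 WT and 8.60 and 7.56 for Mettl3 cKO. It stood at 8.77 and 9.06 for Virma WT, and 10.2 and 9.78 for Virma cKO. The Mettl3 WT libraries were the high ones, and with Virma WT as control the Ndufb2 change of −0.78 ± 0.13 became −0.14. Ndufb10 and Ndufa11, accessory subunits of the membrane arm, did not pass in Mettl3 cKO and fell in Virma cKO. Ndufb10 went from 135 and 134 CPM in Virma WT to 90.6 and 88.0 (−0.60 ± 0.06), and Ndufa11 from 67.2 and 73.1 to 49.9 and 47.6 (−0.53 ± 0.07). Ndufa12 was the one nuclear complex I gene that rose in Virma cKO, from 60.9 and 52.8 CPM to 71.8 and 69.9 (0.32 ± 0.08). It did not pass without Virma WT replicate 2 (0.21, edgeR adjusted p = 0.0664), and 26.2% of its 50-base windows occur in another annotated gene.

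Complex II, succinate dehydrogenase, is also an enzyme of the TCA cycle. Its 4 genes all fell in Virma cKO, beside 26.1% of all genes, with a median of −0.53. Sdha, the flavoprotein that oxidises succinate, stood at 340.5 and 336 CPM for Mettl3 WT, 259 and 262 for Mettl3 cKO, 331 and 335 for Virma WT, and 227 and 231 for Virma cKO. Both cKO groups were below both WT groups (−0.38 ± 0.03 and −0.54 ± 0.04). Sdhb, the iron-sulfur subunit, stood at 92.9 and 95.1 CPM in Mettl3 WT and 99.8 and 92.0 in Mettl3 cKO, which overlapped, and at 89.3 and 82.6 in Virma WT against 56.1 and 56.7 in Virma cKO (−0.61 ± 0.07). The membrane anchors Sdhc (−0.36 ± 0.06) and Sdhd (−0.52 ± 0.06) fell in Virma cKO as well. In Mettl3 cKO Sdhc did not pass (0.01 ± 0.05), and Sdhd stood at 0.13 ± 0.05, a call lost without Mettl3 WT replicate 2 (0.11, edgeR adjusted p = 0.0585) or Mettl3 cKO replicate 1 (0.10, 0.167) and reversed to −0.02 with the length and GC trend removed.

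Complex III, the cytochrome bc1 complex, had the most risen genes for its size in Mettl3 cKO. Of its 8 nuclear genes 5 rose (62.5%) and 2 fell (25.0%), beside 27.1% and 28.0% of all genes, with a median of 0.23. Uqcrq, a small subunit beside cytochrome b, stood at 182 and 177 CPM with Mettl3 WT, 330.5 and 329 with Mettl3 cKO, 210.3 and 207 with Virma WT, and 241 and 237 with Virma cKO. It rose in both lines (0.88 ± 0.03 and 0.20 ± 0.04) and was the one nuclear gene of the 82 that did so. Uqcr10, another small subunit, went from 80.1 and 79.8 CPM to 121 and 124 in the Mettl3 line (0.62 ± 0.05) and stood at 77.6 and 78.0 against 73.4 and 75.2 in the Virma line (−0.07 ± 0.06). Uqcrfs1, the Rieske iron-sulfur protein, went from 103 and 105 CPM to 149 and 152 in the Mettl3 line (0.53 ± 0.04) and stood at 117 and 114 against 119 and 119.7 in the Virma line (0.05 ± 0.05). With the length and GC trend removed Uqcrq, Uqcr10 and Uqcrfs1 kept their calls in Mettl3 cKO.

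Uqcrc1, Uqcrc2 and Uqcrh of complex III fell in Virma cKO. Uqcrc1, a core protein, went from 286 and 290.3 CPM in Mettl3 WT to 309.6 and 322 in Mettl3 cKO (0.13 ± 0.03), which turned to −0.18 with the length and GC trend removed, and from 273 and 281 in Virma WT to 171 and 176 in Virma cKO (−0.68 ± 0.04). Uqcrc2, its partner, fell in both lines (−0.21 ± 0.05 and −0.55 ± 0.06). Uqcrh, the hinge protein that docks cytochrome c, stood at 181 and 184 CPM (Mettl3 WT), 141 and 134 (Mettl3 cKO), 128 and 131 (Virma WT), and 79.4 and 78.1 (Virma cKO). The Virma WT libraries lay below Mettl3 cKO, so the fall of −0.41 ± 0.04 in Mettl3 cKO became 0.08 with Virma WT as control.

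Complex IV, cytochrome c oxidase, had 14 nuclear genes tested of 18. In Mettl3 cKO 3 rose (21.4%) and 4 fell (28.6%), near the 27.1% and 28.0% of all genes. In Virma cKO 9 fell (64.3%) and none rose, beside 26.1% and 26.2% of all genes. The medians were −0.05 and −0.21. Cox6c (0.31 ± 0.03), Cox8a and Cox6a1 (0.30 ± 0.04) were the genes that rose in Mettl3 cKO, and Cox6a1 turned to −0.10 with the length and GC trend removed. Cox8a, a small membrane subunit, went from 234 and 243 CPM to 307 and 324 in the Mettl3 line (0.41 ± 0.04) and stood at 209.8 and 230 against 205 and 209.6 in the Virma line (−0.09 ± 0.05). The rise of Cox8a was 0.01 and did not pass with the length and GC trend removed. In the Virma line Cox8a passed only without Virma WT replicate 1 among the libraries left out (−0.15, edgeR adjusted p = 0.0161). Cox7b stood at 246 and 252 CPM in Virma WT, against 179 and 178 in Virma cKO (−0.48 ± 0.04). Cox4i1, the largest nuclear subunit, stood at 459.6 and 464 CPM in Mettl3 WT and 472 and 480.1 in Mettl3 cKO, and at 341 and 351 in Virma WT against 296 and 298 in Virma cKO (−0.22 ± 0.04).

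Tissue-specific forms of complex IV subunits were below their usual counterparts. Per kilobase, and as a mean over the 8 libraries, Cox4i2, a form known from lung, was at 1.62 CPM against 517 for Cox4i1. The muscle form Cox7a1 was at 27.3 against 102 for Cox7a2, and the testis form Cox6b2 at 26.2 against 174 for Cox6b1. Cox7a1 stood at 23.1 and 21.6 CPM for Mettl3 WT, 18.2 and 17.2 for Mettl3 cKO, 10.6 and 10.8 for Virma WT, and 7.72 and 7.53 for Virma cKO. Its fall in Mettl3 cKO (−0.33 ± 0.10) did not pass without Mettl3 cKO replicate 2 (−0.29, edgeR adjusted p = 0.0671) and was 0.73 with Virma WT as control. Ndufa4l2, a hypoxia-responsive paralogue of Ndufa4, had 64 and 55 counts with Mettl3 WT, 24 and 18 with Mettl3 cKO, 35 and 47 with Virma WT, and 15 and 11 with Virma cKO. It had the lowest log2 fold change of the tested nuclear genes in both lines, −1.49 ± 0.29 and −1.63 ± 0.43.

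Complex V, ATP synthase, joins a catalytic F1 head to a membrane part with a rotating ring of c subunits, held by a peripheral stalk. In Virma cKO 16 of its 17 nuclear genes fell (94.1%) and none rose, beside 26.1% and 26.2% of all genes, with a median of −0.42. By role, all 5 of F1, all 3 of the c ring, all 4 of the stalk and 4 of the other 5 fell, with medians of −0.47, −0.64, −0.58 and −0.32. The role groups were made after the values were seen. Atp5a1, the F1 alpha subunit, stood at 1283 and 1289 CPM (Mettl3 WT), 1098 and 1116 (Mettl3 cKO), 1256 and 1232 (Virma WT), and 720.2 and 730 (Virma cKO). Both cKO groups were below both WT groups, and Virma cKO by far the most (−0.22 ± 0.02 and −0.78 ± 0.03). Atp5b, the catalytic beta subunit, fell in both lines too, by −0.13 ± 0.02 and −0.42 ± 0.03, and per kilobase it was the highest nuclear gene at 636 CPM.

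Other complex V genes went opposite ways in the lines. Atp5g1, one of the genes that encode the same c-ring protein, stood at 66.5 and 79.2 CPM for Mettl3 WT, 104 and 102 for Mettl3 cKO, 84.9 and 85.9 for Virma WT, and 51.0 and 51.5 for Virma cKO. It rose in Mettl3 cKO (0.50 ± 0.06) and fell in Virma cKO (−0.74 ± 0.08). Atp5d, the F1 delta subunit, did likewise, from 205 and 192 CPM to 249.7 and 259 (0.36 ± 0.04) and from 219 and 222 to 160 and 158 (−0.47 ± 0.05). The rise of Atp5d became −0.02 with the length and GC trend removed. Atp5l, a small membrane subunit, also rose and fell (0.33 ± 0.05 and −0.32 ± 0.06), but 68.5% of its windows occur in other annotated genes. Atp5pb and Atp5c1, of the stalk and of F1, fell in both lines, by −0.30 ± 0.03 and −0.69 ± 0.04, and by −0.25 ± 0.03 and −0.74 ± 0.04. Across the 10 nuclear genes tested with at least 20% of windows shared, counts are uncertain, and without them 52 of 72 nuclear genes fell in Virma cKO and 1 rose.

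**Figure D4:**
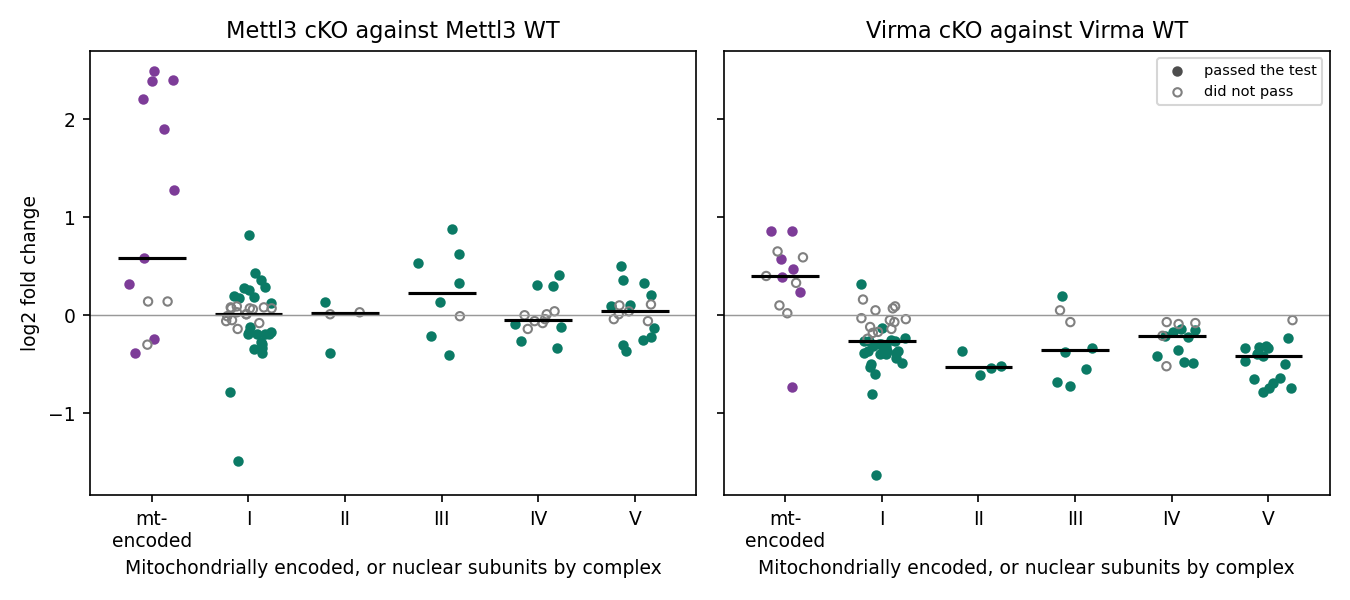
Log2 fold change (vertical axis) of each tested gene in Mettl3 cKO (left) and Virma cKO (right), for mitochondrially encoded genes and nuclear genes by complex. Filled points passed the test, open points did not, and bars are medians: in Virma cKO the nuclear medians run from −0.53 for complex II to −0.21 for complex IV.

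The difference between the effects in the lines was tested as an interaction, the Virma effect minus the Mettl3 effect. Of all genes 39.1% passed, 17.9% higher and 21.2% lower. Of the 82 nuclear genes 60 were lower and 1, Ndufb2, was higher, with a median of −0.37. With the length and GC trend removed 38 were lower and 8 higher, while 4397 of all genes passed and 41.3% of those calls were higher. All 8 nuclear genes of complex III and all 4 of complex II were lower, 25 of 39 of complex I, 8 of 14 of complex IV and 15 of 17 of complex V. The largest nuclear differences were those of Atp5g1 (−1.24 ± 0.10), Ndufb2 (0.94 ± 0.20), Atp5d (−0.83 ± 0.06) and Uqcrc1 (−0.81 ± 0.05). Among mitochondrially encoded genes, mt-Co1, partly inside the copied span, was lower (−0.35 ± 0.04), and mt-Nd5, which does not overlap it, was higher (0.27 ± 0.05). mt-Nd6 was higher as well (0.28 ± 0.11), a call lost without Mettl3 cKO replicate 1 (0.21, edgeR adjusted p = 0.183), Virma WT replicate 1 (0.29, 0.101) or 2 (0.26, 0.141), or Virma cKO replicate 1 (0.17, 0.235).

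Read gene by gene, 20 of the 82 nuclear genes fell in both lines, 1 rose in both, 16 rose in Mettl3 cKO and fell in Virma cKO, none did the reverse, and 7 passed in neither. Over the 14229 genes tested the same patterns held 2026, 1948, 517, 445 and 3891 genes. The 16 include 6 of complex V (Atp5d, Atp5g1, Atp5h, Atp5l, Atp5mpl and Atp5o) and 6 of complex I (Ndufa10, Ndufa2, Ndufb11, Ndufb5, Ndufs4 and Ndufs7), with Uqcrc1, Uqcr11, Sdhd and Cox6a1. With the length and GC trend removed the opposite pattern held 3 nuclear genes (Atp5g1, Atp5l and Ndufs4), all among the 16, and 41 fell in both lines, beside 321 and 2781 of all genes. Of the 16, 10 then had a log2 fold change below 0 in Mettl3 cKO. Cox6a1 did not pass in Virma cKO without Virma WT replicate 2 (−0.12, edgeR adjusted p = 0.0979).

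**Figure D5:**
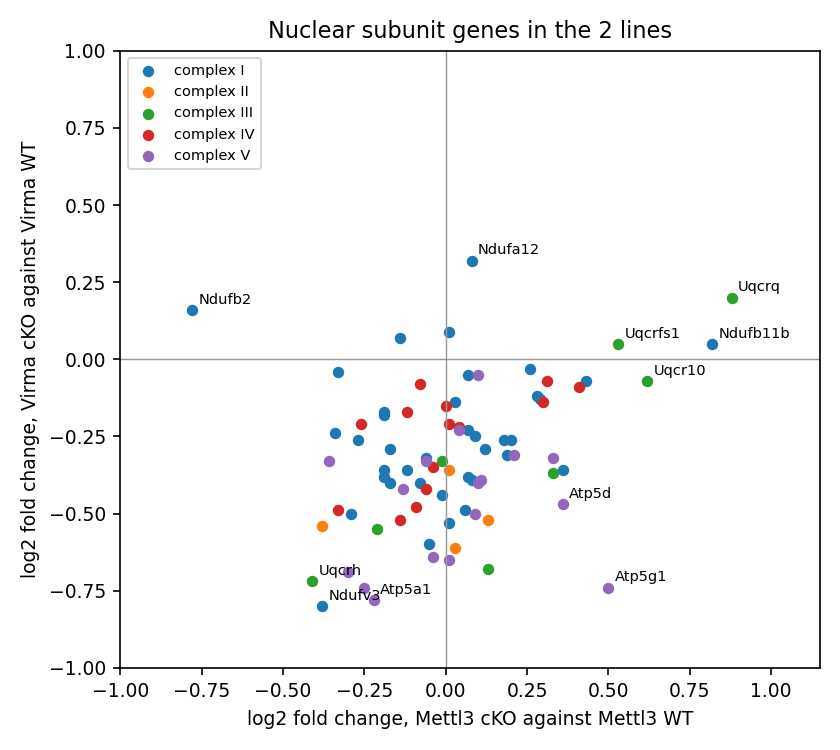
Log2 fold change in Mettl3 cKO (horizontal axis) and in Virma cKO (vertical axis) for nuclear subunit genes, coloured by complex, without Ndufa4l2, which lies outside the axes at −1.49 and −1.63. Most points lie below 0 on the vertical axis and on both sides of 0 on the horizontal axis, with Uqcrq at 0.88 and 0.20.

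The WT groups of the lines differed too. Of all genes 47.6% passed in Virma WT against Mettl3 WT, 25.4% higher and 22.2% lower, and of the nuclear genes 10 were higher and 41 lower of 82. Without Virma WT replicate 1, 5 were higher. Complex I had 2 higher and 21 lower of 39, and complex IV 10 lower of 14. Of the mitochondrially encoded genes 8 were higher and 1 lower, of the 7 not wholly inside the copied span 2 and 1, and of the 5 with no overlap 1 and 1. mt-Co1 was higher in Virma WT (0.23 ± 0.03) and mt-Nd6 lower (−0.34 ± 0.07). The second higher gene, mt-Nd1 (0.34 ± 0.08), did not pass without Mettl3 WT replicate 1 (0.36, edgeR adjusted p = 0.133) or 2 (0.32, 0.167). The labels name 2 kits without saying which library was made with which, so whether the kit differed between the lines is not known.

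Related genes of the organelle were examined as whole lists. Assembly factors, which build the complexes but are not part of them, mostly rose in Mettl3 cKO: 29 of 51 tested rose (56.9%) and 5 fell (9.8%), beside 27.1% and 28.0% of all genes, with a median of 0.27 against 0.01. With the length and GC trend removed 18 rose and 7 fell, beside 2984 and 4407 of all 14229 genes. In Virma cKO 14 rose (27.5%) and 9 fell (17.6%), and the share that rose is close to the 26.2% of all genes. Ndufaf1, which helps assemble the membrane arm of complex I, stood at 21.4 and 19.8 CPM with Mettl3 WT, 45.3 and 42.1 with Mettl3 cKO, 18.8 and 20.7 with Virma WT, and 40.5 and 42.4 with Virma cKO. It rose by 1.08 ± 0.08 and 1.07 ± 0.10, so both cKO groups lay near the same level. Coa7, a factor for complex IV, rose by 1.09 ± 0.08 and 0.97 ± 0.08. Tmem186, another complex I assembly factor, went the other way, from 19.5 and 19.6 CPM to 7.76 and 7.02 (−1.41 ± 0.11), and from 20.2 and 19.6 to 4.95 and 4.74 (−2.04 ± 0.16).

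Of 18 TCA cycle genes 4 rose and 8 fell in Mettl3 cKO, and 2 rose and 14 fell in Virma cKO, with medians of −0.05 and −0.31. The shares that fell were 44.4% and 77.8%, beside 28.0% and 26.1% of all genes. With the length and GC trend removed 13 fell in Mettl3 cKO, beside 4407 of all 14229 genes. Idh3g, a subunit of isocitrate dehydrogenase, fell by −0.37 ± 0.05 and −0.77 ± 0.07, and Fh1, fumarase, by −0.32 ± 0.05 and −0.69 ± 0.07. Of 19 electron carriers and subunits that the symbol rule missed, 5 rose (26.3%) and 2 fell (10.5%) in Mettl3 cKO. The share that rose is close to the 27.1% of all genes. In Virma cKO 7 fell (36.8%) and none rose, beside 26.1% and 26.2% of all genes. With the length and GC trend removed 6 fell in Mettl3 cKO, beside 4407 of all 14229 genes. Of these 19 genes Cyc1, the cytochrome c1 of complex III, stood at 143 to 148 CPM in the Mettl3 libraries. It stood at 142 and 144 CPM in Virma WT and at 92.7 and 88.6 in Virma cKO (−0.66 ± 0.05).

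Genes for mitochondrial DNA transcription and RNA processing had 11 risen (35.5%) and 5 fallen (16.1%) of 31 in Mettl3 cKO, and 4 (12.9%) and 8 (25.8%) in Virma cKO. Beside 27.1% and 28.0%, and 26.2% and 26.1%, of all genes, the fall in Virma cKO is at the share of all genes. Tefm, the mitochondrial transcription elongation factor, rose in both (0.76 ± 0.10 and 0.72 ± 0.13), as did Mterf4, a mitochondrial ribosome assembly factor of the MTERF family (1.22 ± 0.08 and 0.76 ± 0.09). Of 11 nuclear regulators of respiratory genes tested of 12, 4 rose and 5 fell in Mettl3 cKO, and 3 rose and 2 fell in Virma cKO, where the share that rose (27.3%) is close to that of all genes. Gabpb2, which encodes a partner subunit of the ETS factor GABPA, fell in Mettl3 cKO (−0.59 ± 0.05) and stood at 0.05 ± 0.06 in Virma cKO. Gabpa itself moved in opposite directions, −0.15 ± 0.05 in Mettl3 cKO and 0.34 ± 0.05 in Virma cKO.

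Promoters of nuclear respiratory genes are known for sites of NRF1, ETS factors and YY1. The 300 bases from 250 before to 50 after the start, from RefSeq on GRCm38.p6, were found for 69 of the 86 nuclear genes. Searched on both strands, the letters GCATGCGC of an NRF1 site occurred in 10 of the 69 (14.5%), against 2.80% of all promoters and 5.17% of those of tested genes. The ETS letters CCGGAAG occurred in 23.2%, against 9.12% and 17.1%, and the YY1 letters AAGATGGC in 13%, against 2.88% and 4.41%. In Virma cKO the median log2 fold change was −0.38 for the 10 genes with the NRF1 letters and −0.31 for the 57 tested genes without them. It was −0.32 for the 16 with the ETS letters and −0.35 for the 51 without, and −0.29 for the 9 with the YY1 letters and −0.33 for the 58 without, so for those letters the order was the other way. None of these differences was tested. A match is a description of letters, and occupancy was not measured. The 250 upstream bases of Ndufa11, at chr17:56717512-56717761 on the plus strand, and of Sdhb, at chr4:140961021-140961270 on the plus strand, are shown because both hold the NRF1 letters, in capitals, and both genes fell in Virma cKO. In Ndufa11 matches on both strands overlap.
Ndufa11: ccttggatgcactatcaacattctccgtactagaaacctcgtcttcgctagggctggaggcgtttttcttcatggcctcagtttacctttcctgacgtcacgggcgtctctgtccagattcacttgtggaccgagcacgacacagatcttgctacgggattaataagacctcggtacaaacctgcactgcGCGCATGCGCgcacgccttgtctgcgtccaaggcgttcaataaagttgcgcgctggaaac
Sdhb: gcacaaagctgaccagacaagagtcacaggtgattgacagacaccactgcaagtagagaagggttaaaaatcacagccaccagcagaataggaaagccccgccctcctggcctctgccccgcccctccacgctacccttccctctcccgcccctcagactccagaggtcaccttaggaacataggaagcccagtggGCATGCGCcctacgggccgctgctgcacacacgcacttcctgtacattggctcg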

How the data were processed

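The deposited table holds counts, whole numbers per gene symbol made by the authors, in 8 libraries of total RNA, 2 in each of 4 groups taken from the labels. The submitters' processing notes name mm39 as the build and, among tools, STAR 2.7.11b, Subread, FastQC 0.12.1, Trim Galore and DESeq2. What each did, and the annotation, strandedness and handling of multi-position reads, is not given in those notes or the labels. The labels' protocols name TRIzol extraction and both a SMARTer stranded and a VAHTS kit, without saying which library used which. Of 21812 symbols 3527 had no count.

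The counts were tested with edgeR 4.0.16 in R 4.3.3 (quasi-likelihood, robust, TMM factors, filterByExpr on the 8 libraries, 14229 genes, of which 95 are among the respiratory genes), with the Virma cKO pair entered as 1 sample, its rounded mean, and 3 residual degrees of freedom. It is taken to vary as the other groups do. P-values were adjusted by Benjamini-Hochberg over all genes tested, with a threshold of 0.05, and errors given with ± are standard errors unless marked SD. CPM were scaled with TMM factors and, where levels of genes are compared, divided by gene length from GENCODE M21 on GRCm38, which gave a length for 95 of the 100 symbols. Copies were sought as exact 50-base windows shared between annotated genes. Limma 3.58.1 was loaded by edgeR. The fit was tested on simulated data.

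Single genes were named by a rule: all mitochondrially encoded and Sdh genes, per complex and comparison the 3 largest rises and falls among genes that passed at a mean log2 CPM of 2 or more, the 6 largest interactions, tissue forms with their counterparts, the most and least abundant gene of each complex, Mettl3, Virma, and up to 3 genes per list. Other genes named, the grouping by role within complex V, the list of the 16 genes and the promoters shown were chosen after their values were seen. Members, lists and tests were all chosen with earlier results of these data known.

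Alternatives were 8 separate libraries, DESeq2 1.42.0, its size factors, total-count scaling, TMM without respiratory, ribosomal protein and histone genes, other filters, an adjusted p of 0.01, each line alone, a replicate block, a length and GC trend removed (loess), Virma WT as control for Mettl3 cKO, and each library left out. Leaving out genes with near-identical copies, or partly inside the copied span, was chosen after seeing the data.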

Additional observations from a re-analysis of the deposited data

Results flagged for a closer look

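Of the 53 respiratory genes named by the rule and tested, 37 differed in effect between the lines in the interaction test of edgeR. The difference is the Virma effect minus the Mettl3 effect, log2. Over all genes tested 39.1% passed. The rule itself takes genes with the largest changes and interactions. The count of 37 therefore follows in part from that choice, and no conclusion is drawn from it. Among mitochondrially encoded genes inside the copied span the difference was −2.31 for mt-Co2, −1.87 for mt-Co3 and −1.82 for mt-Atp6, all on low counts. For mt-Co1, partly inside the span, the difference was −0.35. With no overlap with the span, it was 0.27 for mt-Nd5 and 0.28 for mt-Nd6.

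In complex I it was 0.94 for Ndufb2, −0.76 for Ndufb11b, −0.73 for Ndufs7, −0.54 for Ndufb10 and for Ndufa11, −0.50 for Ndufc2 and −0.42 for Ndufv3. Ndufb11b, at 94 to 223 counts, lost the call without Mettl3 cKO replicate 1 (−0.75, edgeR adjusted p = 0.068) or 2 (−0.78, 0.0586), Virma WT replicate 1 (−0.63, 0.13) or Virma cKO replicate 2 (−0.63, 0.0539). In complex II it was −0.66 for Sdhd, −0.64 for Sdhb, −0.37 for Sdhc and −0.17 for Sdha. Sdha moved the same way in both lines, and its difference was −0.07 and not called with total-count scaling.

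In complex III it was −0.81 for Uqcrc1, −0.69 for Uqcr10, −0.68 for Uqcrq, −0.48 for Uqcrfs1, −0.34 for Uqcrc2, −0.32 for Uqcrb and −0.31 for Uqcrh. In complex IV it was −0.49 for Cox8a, −0.44 for Cox6a1, −0.39 for Cox7b, −0.38 for Cox6c, −0.36 for Cox7a2 and −0.26 for Cox4i1. In complex V it was −1.24 for Atp5g1, −0.83 for Atp5d, −0.65 for Atp5l, −0.56 for Atp5a1, −0.49 for Atp5c1, −0.39 for Atp5pb and −0.29 for Atp5b. With the length and GC trend removed the calls of Ndufa11, Ndufv3, Uqcrb, Uqcrh, Cox8a, Cox6a1, Cox7a2 and mt-Nd5 were lost and that of Cox4i1 reversed. Groups of 2 libraries are too small for a search for single outlying libraries.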

How the results depend on the processing

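Limits are 2 libraries per group, an unknown strand and multi-position setting, and low depth for the genes inside the copied span. No label says that a replicate number marks a shared culture or batch. Deviations of same-numbered libraries correlated at −0.0299 to 0.077 over 10984 genes, and the block was not used in the values reported. That range does not speak for the mitochondrially encoded genes, since 8 of the 13 had replicate 1 above replicate 2 in every group. The main test left such an offset out, and some of their calls depended on it. The replicate block with 8 separate libraries gave, for Mettl3 cKO, 25 nuclear genes higher and 26 lower, while 8343 of all genes passed. For Virma cKO it gave 2 and 65, while 8960 of all genes passed. For the interaction it gave 3 nuclear genes higher, 61 lower and 5 mitochondrially encoded higher, while 6862 of all genes passed. For the WT groups it gave 2 mitochondrially encoded lower, while 7390 of all genes passed. It also called mt-Nd1 (0.14, edgeR adjusted p = 4.56e-07), mt-Nd2 (−0.31, 3.14e-10) and mt-Cytb (0.14, 1.66e-05) in Mettl3 cKO, and mt-Nd2 in Virma cKO (0.59, 3.63e-17). With 8 separate libraries and no block the interaction had 3 nuclear genes higher, and 6768 of all genes passed. The cause of the shifts below was not tested.

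Virma WT as control for Mettl3 cKO gave 3 mitochondrially encoded genes higher (median −0.20), and 48 nuclear higher and 11 lower (median 0.19). It reversed mt-Atp8 (−0.37), mt-Nd3 (−4.58), mt-Nd4l (−0.51), Sdhd (−0.01), Uqcrh (0.08), Cox7a1 (0.73), Cox6b2 (0.00), Cox6b1 (0.08), Cox7b (0.15), Atp5k (0.31), Ndufa4 (0.49) and Uqcrb (0.16). The length and GC trend removed gave, in Mettl3 cKO, 9 nuclear higher and 54 lower (median −0.19). Over all genes 40.4% of the calls were higher, with a median of −0.05. In Mettl3 cKO the setting reversed Sdhb (−0.24), Sdhd (−0.02), Ndufs7 (−0.05), Ndufa11 (−0.34), Uqcrc1 (−0.18), Cox6a1 (−0.10), Atp5d (−0.02) and Cox4i1 (−0.33). The Virma cKO nuclear median was then −0.29, the interaction had 4 mitochondrially encoded and 8 nuclear genes higher and 38 nuclear lower, with Cox6b1 (0.23) and Cox4i1 (0.14) reversed, and the WT groups had 3 mitochondrially encoded lower, with mt-Nd5 (−0.17) reversed.

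DESeq2 gave 15 nuclear lower in Mettl3 cKO, while 5683 of all genes passed, and 5 higher between the WT groups, while 4493 passed. Total-count scaling gave a nuclear median of 0.04 in Mettl3 cKO and, in Virma cKO, medians of 0.53 (mitochondrially encoded) and −0.20 (nuclear) with 4 nuclear higher, and 3 nuclear higher in the interaction. A threshold of 0.01, or no filter, gave 1 mitochondrially encoded gene higher in the interaction. Without the genes inside the copied span 2 mitochondrially encoded genes were higher in Mettl3 cKO (median 0.14), 2 between the WT groups, and 1 lower in the interaction. Without mt-Co1 and mt-Nd4 as well there were 1 higher and 1 lower in Mettl3 cKO (median 0.14), 3 and 0 in Virma cKO, 0 lower in the interaction, and 1 higher between the WT groups. Without nuclear genes that share windows 1 was higher in Virma cKO (median −0.36).

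Leaving out each library in turn, Mettl3 cKO had 7 to 9 mitochondrially encoded genes higher, 2 to 3 lower (median 0.51 to 0.64), 21 to 27 nuclear higher and 15 to 25 lower (median −0.01 to 0.03). Virma cKO had 4 to 7 and 1 to 1 (0.32 to 0.48), and nuclear 1 to 2 and 54 to 63 (−0.34 to −0.31). The interaction had 1 to 4 and 4 to 6, and nuclear 1 to 2 and 49 to 60. The WT groups had 7 to 9 and 1 to 1, and nuclear 5 to 10 and 29 to 41. In the Virma cKO comparison, 996 values of named genes under the alternatives kept direction and call, 28 lost the call, 21 gained one and none reversed. For Mettl3 cKO 1014 kept both, 41 lost the call, 25 gained one and 20 reversed. Only Mettl3 cKO was set against the WT of the other line, which gave 12 of its reversals. The interaction had 927, 25, 32 and 2, and the WT groups 888, 76, 25 and 1, in the same order.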
